A study of Bos taurus with 6 samples.

Results

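The 48 genes described here are named as factors that start protein synthesis. These are the eukaryotic translation initiation factors eIF1 to eIF6 and the proteins that bind eIF4E. Not all of the 48 act in initiation, and EIF4A3 and EIF5A are described below with other roles. All 48 were taken by gene symbol, out of 23475 genes in the expression table. The rule took every gene whose name begins with EIF and a digit from 1 to 6 apart from the EIF2AK kinases. The table came from 6 samples of bovine preadipocytes, the precursor cells of fat cells, isolated from subcutaneous fat of calves. Of these, 3 samples had received a bta-miR-484 agomir, a modified double-stranded RNA that raises the amount of this miRNA in the cell, and 3 had received the agomir NC, its negative control. RNA was collected in both groups 48 h after transfection. The comparison asks which mRNAs differ when the miRNA is raised. The source of the 3 samples of a group, separate calves or separate dishes, is not stated, so every SD and p-value below measures only the spread between these samples. In such bulk RNA, fewer cells of a type and less RNA per cell cannot be told apart.

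Initiation begins when eIF2 brings the initiator tRNA to the small ribosomal subunit, with eIF1, eIF1A, eIF3 and eIF5 bound to it. The eIF4 factors bind the cap of the mRNA and unwind its leader, after which the complex scans to the start codon and eIF5B joins the large subunit. Cells adjust this step mainly by phosphorylation of eIF2 and of the eIF4E binding proteins, which an mRNA measurement does not see, and growing preadipocytes need a high rate of protein synthesis before they differentiate.

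The labels call the cells adipocytes. In FPKM, the unit of all levels here, which divides the fragments of a gene by its transcript length and by the mapped fragments of its library, the 11 markers of preadipocytes and fibroblasts summed to between 23359 and 24535 per library, with COL3A1 as the most abundant at a mean of 7623 and DLK1 at 0 in all 6 libraries. The 10 markers of mature adipocytes summed to between 12.8 and 14.4 FPKM per library, and the most abundant of them, LPL, had a mean of 3.73 FPKM. ADIPOQ, the adipocyte hormone adiponectin, had a mean of 0.140 FPKM, PPARG one of 3.55 FPKM and FABP4 one of 2.39 FPKM. The markers of a mature fat cell were thus low, though not all were near 0. Endothelial markers summed to at most 4.54 FPKM, immune markers to at most 7.76 FPKM, skeletal muscle markers to at most 0.545 FPKM and epithelial markers to at most 0.379 FPKM. MYOD1, MYOG, KRT18 and KRT5 were at 0 in all 6 libraries.

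Initiation factor mRNAs were abundant and differed little between the groups. Of the 48 genes, 47 averaged 0.5 FPKM or more across libraries and were tested with 12422 genes in all. The remaining gene, EIF4E1B, a germ cell relative of eIF4E, was listed at 0 in every library. The median level of the 47 genes was 54.3 FPKM against 8.36 FPKM over all genes tested, and their means ran from 3.16 FPKM for EIF4E3 to 261 FPKM for EIF4A1. Each gene was compared on the scale log2(FPKM + 0.5), where 0.5 is a pseudocount that shrinks the fold change of low genes, by limma's moderated test with Benjamini-Hochberg adjustment over all genes tested. All log2 fold changes are agomir minus agomir NC.

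None of the 47 genes had an adjusted p under 0.05 in limma, where the smallest was 0.362, and 1 of all genes tested had (0.00805%), TRAPPC4. At an unadjusted p under 0.05, 2 of the 47 were higher with the agomir, EIF4A1 and EIF4G2, which is 4.26% against 6.63% of all genes tested. At the same threshold 0 were lower, against 4.31% of all genes. The 3 agomir values and the 3 agomir NC values did not overlap for 3 of the 47, EIF2B5, EIF3I and EIF4G2, against 17.2% of all genes. Each of these shares was below its value over all genes, a description for which no test was made. The estimates were also narrow. The 95% interval of the difference lay within a fold of 1.5 in either direction for 47 of the 47, against 92.9% of all genes, and within a fold of 1.2 for 39 of the 47, against 46.0% of all genes. Among all genes that averaged 10 FPKM or more the shares were 99.3% within a fold of 1.5 and 76.0% within a fold of 1.2, beside 41 and 38 of 41 initiation factor genes. These interval counts were added after the data had been seen.

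The direction of the small differences leaned to the agomir. Of the 47 log2 fold changes, 33 were above 0 and 14 below, or 70.2% against 55.1% of all genes, and this became 27 above and 20 below, beside 49.7% of all genes above 0, when the libraries were rescaled by median ratios. Their median was 0.033, against 0.013 over all genes, or 0.018 against −0.00071 with that scaling, and they ranged from −0.15 for EIF2B3 to 0.20 for EIF5A2. The median size of a log2 fold change, whatever its sign, was 0.053 in the family and 0.075 over all genes. Among genes that averaged 10 FPKM or more it was 0.052 in the family and 0.061 over all genes. Above this floor the median level was still 70.3 FPKM in the family and 22.1 FPKM over all genes, and the part of level in the gap was not tested.

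A pair of libraries stood apart in opposite directions. Agomir replicate 2 held the highest value of the 6 libraries for 22 of the 47 genes, 46.8%, against 26.0% of all genes that averaged 10 FPKM or more. Agomir NC replicate 2 held the lowest value for 26 of the 47, 55.3%, against 26.1% of those genes. As log2 deviations from each gene's mean, the family's median was −0.014, 0.053 and −0.011 in agomir replicates 1 to 3 and 0.017, −0.064 and 0.016 in agomir NC replicates 1 to 3. The same medians over all genes at or above 10 FPKM were 0.018 in agomir replicate 2 and −0.025 in agomir NC replicate 2, which has the same sign and a smaller size. In shares of all summed FPKM, the 48 genes took 0.895%, 0.926% and 0.906% in the agomir libraries and 0.903%, 0.859% and 0.875% in the agomir NC libraries. When both libraries numbered 2 were left out, a choice made after seeing the data, 22 of the 47 log2 fold changes were above 0 and 25 below, beside 50.8% of all genes above 0, and their median was −0.0026, beside 0.0028 over all genes. Since these libraries were picked for being the highest and the lowest of their groups, leaving them out was bound to shrink the lean, and the values without them do not show where it comes from. In that comparison of 2 against 2 libraries no member was higher at an unadjusted limma p under 0.05 (3.72% of all genes), 1 was lower, EIF2B3 (3.72% of all genes), and 16 did not overlap, against 39.3% of all genes. Between libraries of the same number, deviations from the mean of each library's own group correlated across all genes at −0.051, 0.053 and 0.039 for numbers 1 to 3. Across the 47 genes these correlations were 0.26, 0.13 and −0.074. The difference between the groups was removed first, so they are not correlations of the deviations given above. Genes of the same libraries are not independent, so these values are a description only.

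**Figure D1:**
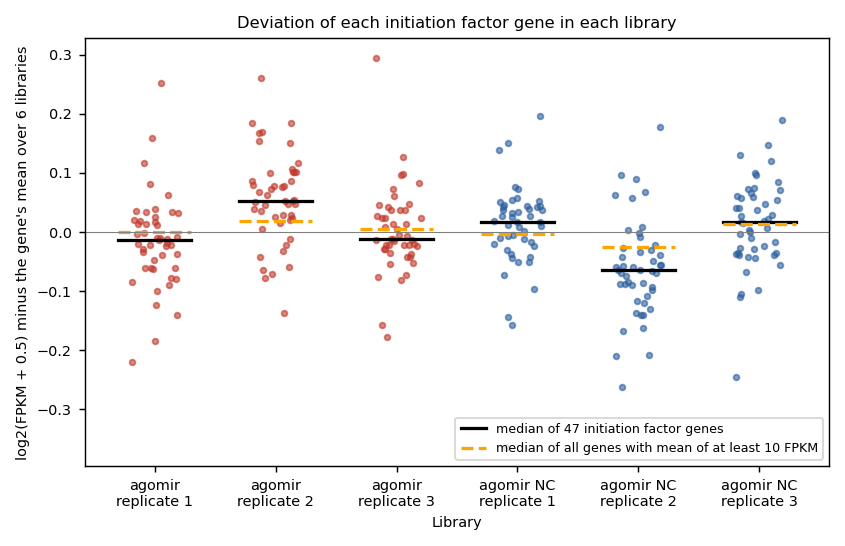
Each point is 1 of the 47 initiation factor genes in 1 library, drawn as its log2(FPKM + 0.5) minus its mean over the 6 libraries, with points spread sideways for sight only. Solid bars mark the median of the 47 genes and dashed bars the median of all genes averaging 10 FPKM or more, and the solid bar is highest in agomir replicate 2 at 0.053 and lowest in agomir NC replicate 2 at −0.064.

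The first group is that of eIF1 and eIF1A, small proteins that sit on the small subunit and help select the start codon. Its 4 genes were split, 2 above 0 and 2 below, with a median log2 fold change of 0.013 that became −0.0025 with median-ratio scaling. EIF1 was the most abundant, at 189, 187 and 191 FPKM in agomir replicates 1 to 3 and 193, 180.5 and 198 FPKM in agomir NC replicates 1 to 3. All 3 agomir values lay inside the range of the control, and the log2 fold change was −0.011 (SE 0.043, limma unadjusted p = 0.807, adjusted p = 0.954), with a sign that turned to 0.014 under quantile normalization and to 0.017 without agomir NC replicate 3. Its paralog EIF1B was lower in level in every library, with between 4.64 and 5.35 FPKM of EIF1 for each FPKM of EIF1B and group means of this ratio of 5.16 ± 0.212 with the agomir and 5.02 ± 0.354 with the NC (SD, n = 3 each). EIF1AX, which encodes eIF1A, had group means of 104 ± 3.46 and 101 ± 2.93 FPKM (SD, n = 3 each). EIF1AD, which holds an eIF1A-like domain, had the smallest p of the group and was low, at 6.55, 5.64 and 5.11 FPKM in agomir libraries and 4.80, 4.44 and 6.24 FPKM in NC libraries. The groups overlapped through agomir NC replicate 3, and the log2 fold change was 0.15 (SE 0.13, limma unadjusted p = 0.264, adjusted p = 0.706), or 0.29 (unadjusted p = 0.0338) without that library. It was 0.065 without agomir replicate 1 and 0.060 without agomir NC replicate 2.

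The next group carries the initiator tRNA. eIF2 is built of an alpha, a beta and a gamma subunit, encoded by EIF2S1, EIF2S2 and EIF2S3, and EIF2A and EIF2D encode separate proteins that can deliver tRNA by other routes. Of these 5 genes 4 were above 0, with a median log2 fold change of 0.057 that became −0.0031 without both libraries numbered 2. EIF2S3, the gamma subunit that holds GTP and tRNA, was at 119.5, 127 and 117 FPKM in agomir libraries and 118, 112 and 119 FPKM in NC libraries. Only agomir replicates 1 and 2 exceeded all control values, and the log2 fold change was 0.061 (SE 0.047, limma unadjusted p = 0.226, adjusted p = 0.677), or 0.025 without agomir replicate 2 and −0.0031 without both libraries numbered 2. The levels of the subunits were unequal although the proteins are assembled in equal numbers. EIF2S1, the alpha subunit that stress kinases phosphorylate, had a mean of 27.8 FPKM beside 99.9 FPKM for EIF2S2 and 119 FPKM for EIF2S3. The FPKM ratio of EIF2S3 to EIF2S1 was 4.26 ± 0.323 with the agomir and 4.30 ± 0.156 with the NC (SD, n = 3 each), a difference smaller than the spread of either group. EIF2D was the lone member below 0, at 9.87 ± 0.187 FPKM against 10.6 ± 1.01 FPKM (SD, n = 3 each).

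eIF2B is the exchange factor that reloads eIF2 with GTP, and it has 5 kinds of subunit. Their mRNAs were among the lowest of the large factors and close to each other, with means from 8.53 FPKM for EIF2B3 to 15.0 FPKM for EIF2B2 and a coefficient of variation between subunits of 20.04%, against 58.4% for the 3 subunits of eIF2. Of the 5 genes 4 were above 0, and the median log2 fold change was 0.040, which ran from −0.028 without agomir NC replicate 2 to 0.11 without agomir NC replicate 1 and was 0.0090 with quantile normalization and −0.097 without both libraries numbered 2. EIF2B2, the most abundant, was at 13.7, 16.1 and 15.3 FPKM in agomir libraries and 17.2, 12.9 and 14.8 FPKM in NC libraries. Its control values spanned all of the agomir values, and the log2 fold change of 0.014 (SE 0.10, limma unadjusted p = 0.896, adjusted p = 0.977) had no stable sign. EIF2B5, the catalytic subunit, was at 14.5, 16.3 and 13.83 FPKM in agomir libraries and 13.7, 13.6 and 13.82 FPKM in NC libraries. The groups were apart only by the last digit, between the third library of each, and the log2 fold change was 0.11 (SE 0.068, limma unadjusted p = 0.143, adjusted p = 0.604), or 0.044 (unadjusted p = 0.509) without agomir replicate 2. EIF2B3, the other subunit of the catalytic part, had the lowest log2 fold change of the family, and it is described although the naming rule did not choose it. It was at 7.21, 9.60 and 7.45 FPKM in agomir libraries against 8.85, 9.11 and 8.96 FPKM in NC libraries. Agomir replicates 1 and 3 lay below all controls and agomir replicate 2 above them, so that the log2 fold change was −0.15 (SE 0.10, limma unadjusted p = 0.163, adjusted p = 0.624). Leaving out agomir replicate 2 gave −0.27 (limma unadjusted p = 0.00491, adjusted p = 0.498), and leaving out agomir replicate 1 gave −0.080.

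eIF3 is the largest factor, a scaffold on the small subunit, and 13 of the genes encode its subunits. All 13 intervals lay within a fold of 1.2, as did all 5 in the group of eIF4A. The same held for 76.0% of all genes that averaged 10 FPKM or more. Of the 13, 9 log2 fold changes were above 0 and 4 below, and their median was 0.014, or −0.0016 with median-ratio scaling and −0.036 without both libraries numbered 2. EIF3E, the most abundant, was at 143, 152 and 145 FPKM in agomir libraries and 145, 137 and 141 FPKM in NC libraries. The groups overlapped, and the log2 fold change was 0.052 (SE 0.042, limma unadjusted p = 0.244, adjusted p = 0.686), or 0.027 without agomir replicate 2. EIF3I, a subunit of the peripheral module, had the smallest p of the group and was at 74.3, 72.0 and 70.8 FPKM in agomir libraries and 70.7, 63.8 and 70.0 FPKM in NC libraries. All agomir values were above all control values by a narrow margin, with agomir NC replicate 2 the lowest, and the log2 fold change was 0.087 (SE 0.050, limma unadjusted p = 0.114, adjusted p = 0.566), or 0.041 (unadjusted p = 0.393) without that control library.

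The core and the periphery of eIF3 were also set side by side. The octamer core of EIF3A, EIF3CL, EIF3E, EIF3F, EIF3H, EIF3K, EIF3L and EIF3M had a median level of 97.4 FPKM and the 5 peripheral subunits EIF3B, EIF3D, EIF3G, EIF3I and EIF3J one of 66.4 FPKM. Core levels spanned 73.6 FPKM for EIF3M to 144 FPKM for EIF3E, with a coefficient of variation of 24.5%, against 37.2% over all 13. The lowest was EIF3J at 31.7 FPKM, a loosely bound subunit. The ratio of EIF3E to EIF3J was 4.55 ± 0.342 with the agomir and 4.55 ± 0.149 with the NC (SD, n = 3 each). As differences, the median log2 fold change was 0.0076 in the core and 0.039 in the peripheral subunits. These medians were not stable. The peripheral one was 0.0073 (EIF3J) without agomir NC replicate 2 and 0.0010 (EIF3D) without both libraries numbered 2. Over all 13 subunits the median was −0.0089 without agomir replicate 2 and −0.0104 without agomir NC replicate 2. The row named EIF3CL carries EIF3C as a synonym in the RefSeq gene table and is counted here as the C subunit.

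**Figure D2:**
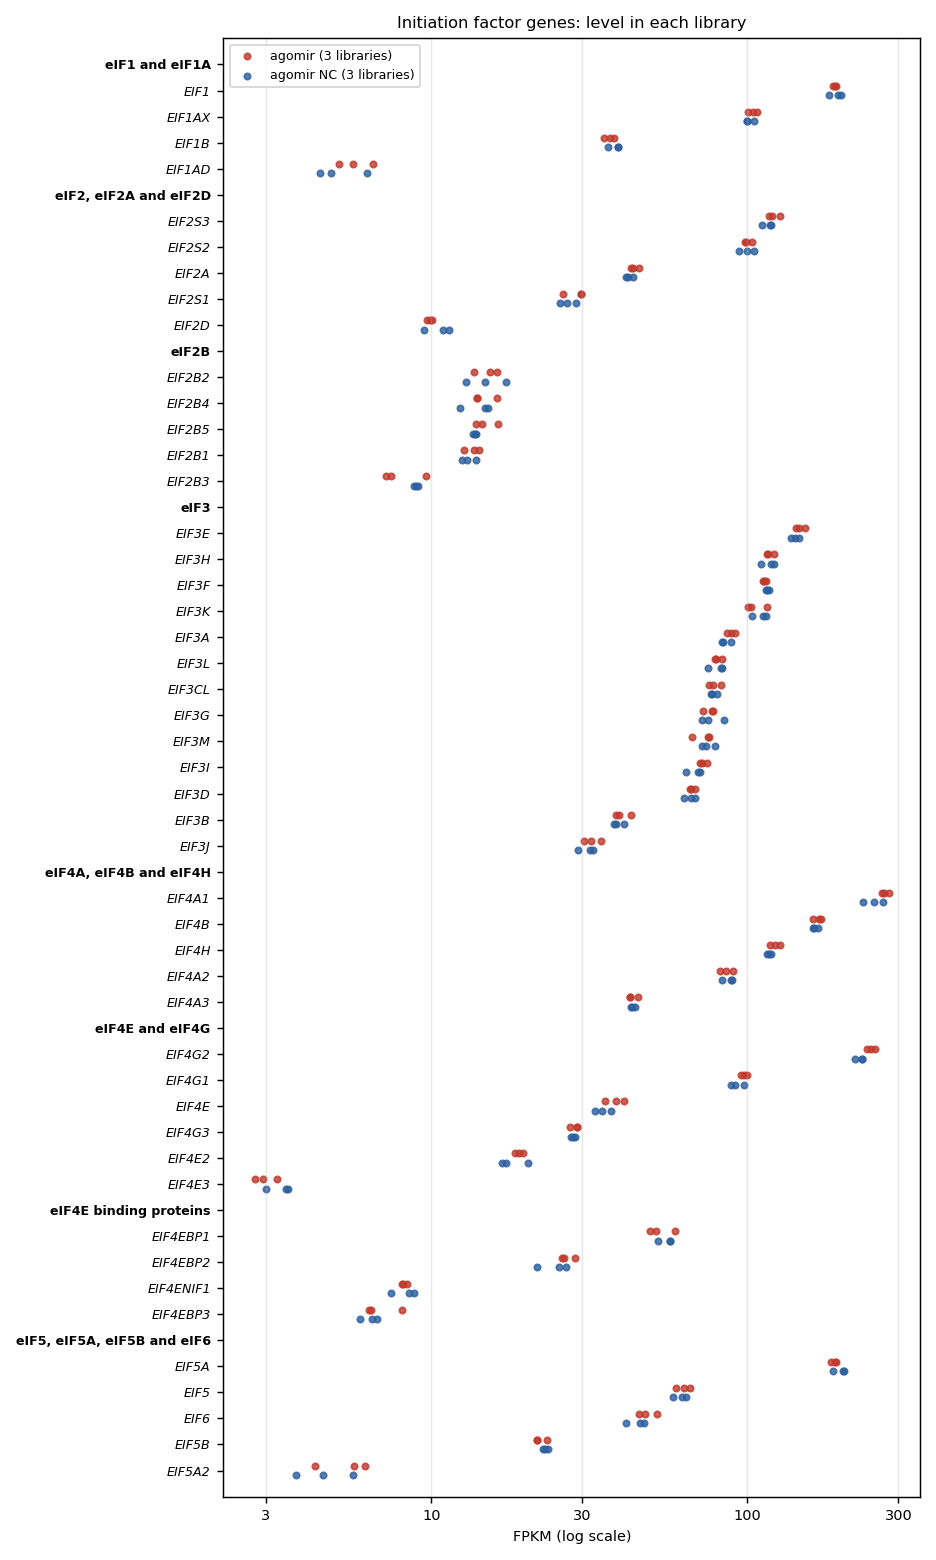
FPKM of the 47 tested initiation factor genes on a log axis, by factor group and in order of level within each group, with 1 point for each of the 3 agomir and the 3 agomir NC libraries. Levels between genes span 3.16 to 261 FPKM in the mean, while the points of the groups lie on top of each other for most genes.

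The helicase eIF4A and its helpers eIF4B and eIF4H unwind the leader of the mRNA, and they were the most abundant group, with a median level of 119.6 FPKM. Of the 5 genes 4 were above 0 with a median log2 fold change of 0.029, which was 0.013 without agomir replicate 2 and 0.0088 without both libraries numbered 2. EIF4A1, the main helicase and the highest of all 47 genes, was at 267, 279.7 and 269.5 FPKM in agomir libraries and 269, 232 and 251 FPKM in NC libraries. The agomir values were tight and the control values wide, and agomir NC replicate 1 lay inside the agomir range, so the groups overlapped. Means were 272 ± 6.73 and 251 ± 18.2 FPKM (SD, n = 3 each), which gave a log2 fold change of 0.12 with a 95% interval from 0.00069 to 0.24. limma gave an SE of 0.054, an unadjusted p of 0.0489 and an adjusted p of 0.454, and the exact two-sided permutation p was 0.2, where 0.1 is the smallest that 3 libraries against 3 allow. The unadjusted p stayed under 0.05 in 5 of 16 other settings, and of the 6 settings that left out a single library this held in 1, without agomir NC replicate 1 (0.17, limma unadjusted p = 0.00805). The log2 fold change was 0.067 (limma unadjusted p = 0.173) without agomir NC replicate 2, 0.10 (unadjusted p = 0.139) without agomir replicate 2, and 0.047 (unadjusted p = 0.353) without both.

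The paralog EIF4A2 did not share this pattern of levels. It was at 85.6, 90.3 and 81.7 FPKM in agomir libraries and 89.0, 83.1 and 89.4 FPKM in NC libraries, and its log2 fold change was −0.022 (SE 0.051, limma adjusted p = 0.913). The sign turned to 0.013 without agomir replicate 3, and the value was −0.059 without agomir replicate 2 and −0.092 without both libraries numbered 2. The FPKM ratio of EIF4A1 to EIF4A2 within each library was 3.12, 3.10 and 3.30 with the agomir and 3.02, 2.79 and 2.81 with the NC. These ratios did not overlap, with means of 3.17 ± 0.111 and 2.87 ± 0.125 (SD, n = 3 each), and this was 1 of 2 among 13 ratios examined that did not, a share near the 17.2% of all genes whose levels did not overlap. EIF4A3, a related helicase that works in the exon junction complex and not in initiation, stood at 43.4 ± 1.40 FPKM in agomir libraries and 43.4 ± 0.760 FPKM in NC libraries (SD, n = 3 each). EIF4B and EIF4H had log2 fold changes of 0.029 and 0.062, with limma adjusted p-values of 0.828 and 0.626. Without agomir replicate 2 these were 0.013 and 0.034.

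eIF4E binds the cap and eIF4G bridges it to eIF3. Of 6 tested genes 5 were above 0, and the median log2 fold change of 0.074 was the highest of the 8 groups, with 0.031 left without both libraries numbered 2. This rank did not hold without agomir NC replicate 1, where the median was 0.078 beside 0.11 for eIF2B. Nor did it hold without agomir replicate 1, at 0.075 beside 0.082 for eIF2B and 0.081 for the eIF4E binding proteins. EIF4G2, also called DAP5, lacks the site for eIF4E and supports initiation that does not use it. It was at 239, 254 and 246 FPKM in agomir libraries and 230.4, 219 and 231 FPKM in NC libraries. All 3 agomir libraries were above all 3 controls, with means of 246 ± 7.29 and 227 ± 6.44 FPKM (SD, n = 3 each). This is a log2 fold change of 0.12, or a fold of 1.09 with a 95% interval from 1.02 to 1.16. limma gave an SE of 0.041, an unadjusted p of 0.0156 and an adjusted p of 0.362, and the exact two-sided permutation p was 0.1, the smallest possible. The unadjusted p stayed under 0.05 in 13 of 16 other settings. The exceptions were 0.0698 without a variance trend, 0.0608 without agomir replicate 2, where the log2 fold change was 0.099, and 0.117 without both libraries numbered 2, where it was 0.075. Adjusted p-values over these settings ran from 0.249 to 0.700.

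Among the other cap factors, EIF4E itself is described although the naming rule did not choose it, since it is the factor the binding proteins act on. It was at 35.6, 40.7 and 38.4 FPKM in agomir libraries and 34.7, 33.1 and 37.1 FPKM in NC libraries. Agomir replicate 1 lay below agomir NC replicate 3, and the log2 fold change was 0.13 (SE 0.063, limma unadjusted p = 0.0726, adjusted p = 0.506). It was 0.18 (limma unadjusted p = 0.0244) without agomir replicate 1 and 0.17 (unadjusted p = 0.0304) without agomir NC replicate 3, but 0.082 (unadjusted p = 0.249) without agomir replicate 2 and 0.043 (unadjusted p = 0.533) without both libraries numbered 2. Its paralog EIF4E2, known as a repressor that occupies caps, was at 18.9 ± 0.564 and 18.0 ± 1.91 FPKM (SD, n = 3 each). EIF4E3 was at 2.99 ± 0.251 FPKM in agomir libraries and 3.33 ± 0.283 FPKM in NC libraries (SD, n = 3 each). The FPKM ratio of EIF4E to EIF4E3 was the other of the ratios examined that did not overlap between the groups, beside 17.2% of all genes whose levels did not. It was at 12.1, 12.5 and 13.9 with the agomir and 9.87, 11.01 and 10.7 with the NC. The large scaffolds EIF4G1 and EIF4G3 had log2 fold changes of 0.078 and 0.020, with limma adjusted p-values of 0.590 and 0.915. EIF4G1 was at 0.12 (limma unadjusted p = 0.0353) without agomir NC replicate 1 and 0.048 without agomir NC replicate 3. EIF4G3 was at 0.0068 without agomir replicate 1 and 0.043 without agomir replicate 3.

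The eIF4E binding proteins block the cap factor until mTORC1 phosphorylates them. EIF4ENIF1, a carrier that takes eIF4E into the nucleus, is counted with them. The 4 genes were split evenly, 2 above 0 and 2 below, with a median log2 fold change of 0.048, which was −0.0024 without agomir replicate 2 and 0.013 without both libraries numbered 2. EIF4EBP1 was the most abundant, at 51.2, 49.2 and 59.2 FPKM in agomir libraries and 52.3, 56.8 and 56.9 FPKM in NC libraries. The agomir values lay on both sides of the controls, and the log2 fold change was −0.059 (SE 0.070, limma unadjusted p = 0.420, adjusted p = 0.802), or −0.14 (unadjusted p = 0.0476) without agomir replicate 3, −0.0053 without agomir replicate 2 and 0.014 without both libraries numbered 2. EIF4EBP2 had the smallest p of the group, at 25.9, 28.5 and 26.3 FPKM in agomir libraries and 25.4, 26.7 and 21.6 FPKM in NC libraries. The low value of agomir NC replicate 3 set most of its log2 fold change of 0.14 (SE 0.079, limma unadjusted p = 0.120, adjusted p = 0.575), which was 0.047 without that library and 0.198 (unadjusted p = 0.0346) without agomir NC replicate 2. Summed FPKM of EIF4EBP1, EIF4EBP2 and EIF4EBP3 stood at 2.28 ± 0.152 for each FPKM of EIF4E with the agomir and 2.48 ± 0.219 with the NC (SD, n = 3 each), and the groups overlapped.

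The last group acts late, in start codon recognition (EIF5), subunit joining (EIF5B), elongation and peptide bond formation (EIF5A and EIF5A2) and the keeping apart of free ribosomal subunits (EIF6). Of the 5 genes 3 were above 0, and the median log2 fold change of 0.033 became −0.041 without both libraries numbered 2. EIF5A, the substrate of hypusine modification, was at 190.2, 183 and 189 FPKM in agomir libraries and 202, 186 and 201 FPKM in NC libraries. Agomir NC replicate 2 lay inside the agomir range and the other controls above it, and the log2 fold change was −0.064 (SE 0.043, limma unadjusted p = 0.170, adjusted p = 0.627), or −0.10 (unadjusted p = 0.033) without that control library and −0.044 without agomir NC replicate 1. EIF6 had the smallest p of the group, at 51.8, 47.3 and 45.4 FPKM in agomir libraries and 47.2, 41.4 and 45.6 FPKM in NC libraries. The groups overlapped, and the log2 fold change was 0.11 (SE 0.065, limma unadjusted p = 0.136, adjusted p = 0.600), or 0.052 without agomir NC replicate 2 and 0.053 without agomir replicate 1. EIF5A2 had the highest log2 fold change of the family at 0.20, but its level was low and its SE of 0.16 wide. The value ran from 0.065 without agomir NC replicate 1, where EIF4A1 was above it at 0.17, to 0.34 without agomir replicate 1. It was at 4.30, 5.69 and 6.18 FPKM in agomir libraries and 3.74, 5.66 and 4.55 FPKM in NC libraries, so the groups overlapped, and EIF5A stood at 30.6 to 54.0 FPKM for each FPKM of EIF5A2.

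**Figure D3:**
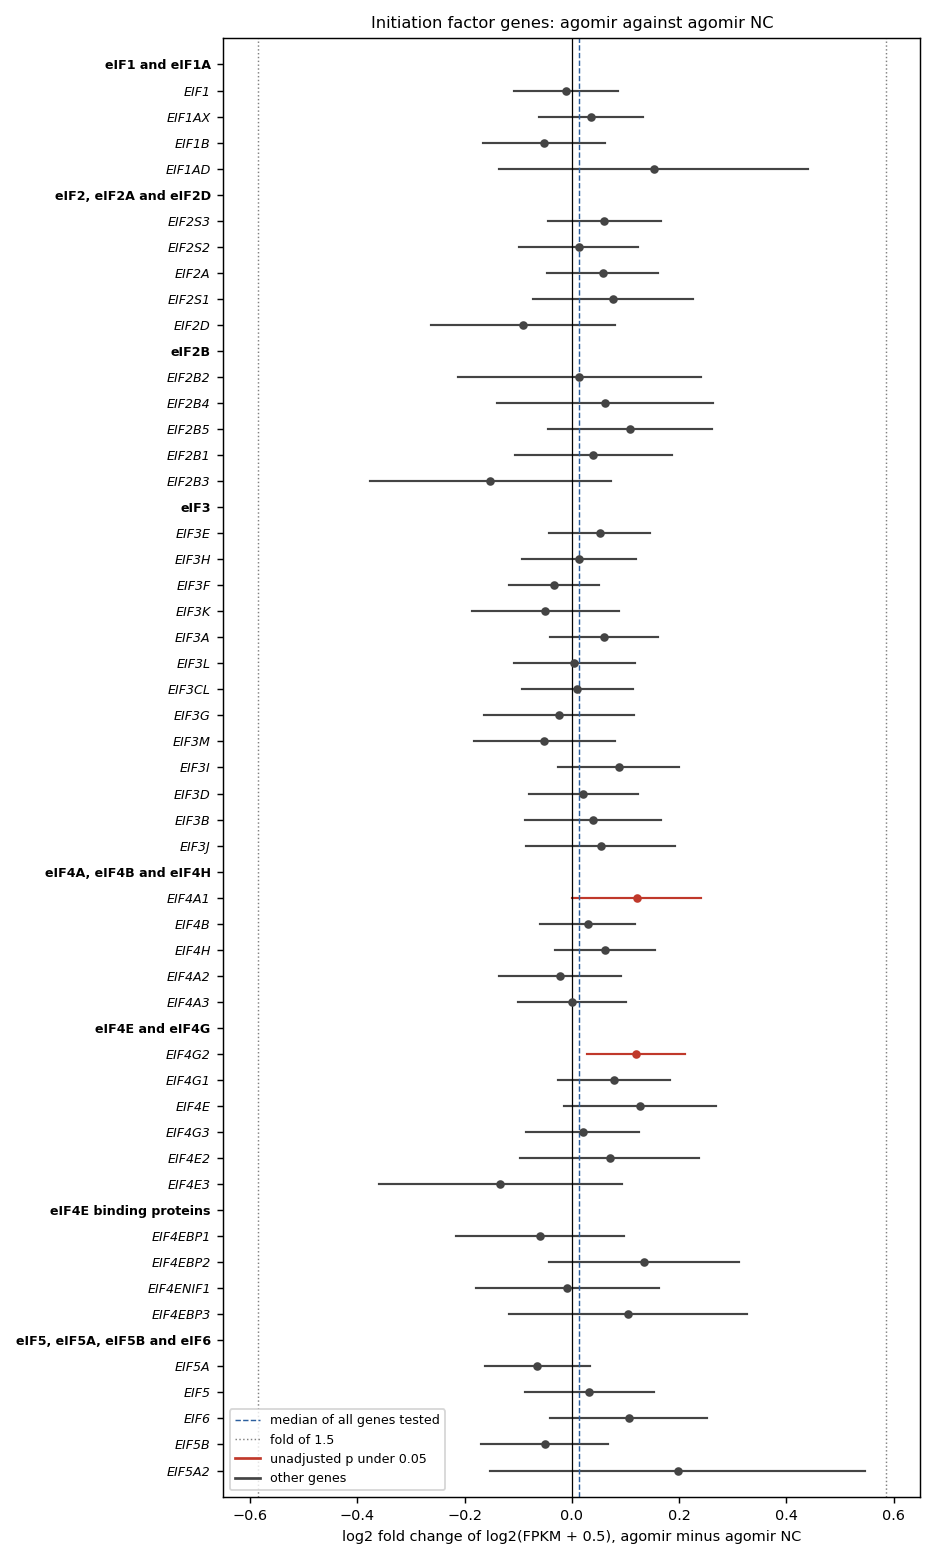
Log2 fold change of log2(FPKM + 0.5), agomir minus agomir NC, for the 47 tested initiation factor genes by factor group, where points are limma estimates from 3 libraries a group and lines their 95% intervals. All 47 intervals lie between the dotted lines at a fold of 1.5, and the intervals of EIF4A1 and EIF4G2, in red for an unadjusted p under 0.05, are the ones that leave out 0.

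Genes that work with or act on the factors were read from lists made for the purpose, with no test of a list as a whole. Over all genes tested, 6.63% were higher and 4.31% lower at an unadjusted p under 0.05, 55.1% were above 0 and 17.2% did not overlap between the groups. With median-ratio scaling these shares of all genes were 5.42%, 5.54%, 49.7% and 17.0%. The counts and medians of the lists below are without that scaling and were not made with it. Of 15 initiation partners, 0 were higher and 1 was lower at that threshold, which is 6.67% beside 4.31% of all genes, and the median log2 fold change was 0.010. The lower gene was MCTS1, which with DENR helps recycled ribosomes start again. It was at 6.75, 7.48 and 7.52 FPKM in agomir libraries and 7.92, 9.20 and 9.07 FPKM in NC libraries. Every agomir library was below every control, and the log2 fold change was −0.25 (SE 0.081, limma unadjusted p = 0.0121, adjusted p = 0.345), or −0.24 (unadjusted p = 0.0565) without both libraries numbered 2. DENR, its partner, was at 13.0 ± 0.421 FPKM in agomir libraries and 14.4 ± 1.21 FPKM in NC libraries (SD, n = 3 each), with overlap.

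The kinases that phosphorylate eIF2 alpha, their regulators and the opposing phosphatase made a list of 11 genes. At an unadjusted p under 0.05, 0 were higher and 1 was lower, or 9.09% beside 4.31% of all genes. This was PPP1CB, a catalytic phosphatase subunit with many other substrates, at 64.3 ± 2.79 against 69.1 ± 1.65 FPKM (SD, n = 3 each). Its log2 fold change was −0.10 (SE 0.046, limma unadjusted p = 0.0499, adjusted p = 0.456), and its p was under 0.05 in 6 of 16 other settings, up to 0.206 without agomir replicate 3. The other catalytic subunits went the other way, PPP1CA at 0.063 (limma adjusted p = 0.627) and PPP1CC at 0.028. Groups did not overlap for 2 of the 11, PPP1CB and PPP1CA, or 18.2% beside 17.2% of all genes. The 4 kinases EIF2AK1 to EIF2AK4 had log2 fold changes between −0.0061 and 0.063.

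Targets of the integrated stress response, the program that follows eIF2 alpha phosphorylation, had 3 of 14 log2 fold changes above 0 and 11 below, that is 21.4% above 0 beside 55.1% of all genes, and a median of −0.049. At an unadjusted p under 0.05, 0 were higher and 2 were lower, ATF5 and DDIT4, or 14.3% beside 4.31% of all genes. DDIT4, an inhibitor of mTORC1 that is also induced by hypoxia and glucocorticoids, was at 117, 123 and 125 FPKM in agomir libraries and 127, 147 and 149 FPKM in NC libraries. All agomir libraries were below all controls, and the log2 fold change was −0.21 (SE 0.062, limma unadjusted p = 0.00714, adjusted p = 0.310). Its unadjusted p was under 0.05 in 16 of 16 other settings, with adjusted p-values from 0.153 to 0.669. ATF5 was at 85.9 ± 7.19 against 97.1 ± 9.18 FPKM (SD, n = 3 each). limma gave it a log2 fold change of −0.17 (unadjusted p = 0.0476, adjusted p = 0.448) that was −0.11 (unadjusted p = 0.179) without agomir NC replicate 2 and −0.056 (unadjusted p = 0.459) without both libraries numbered 2. The unadjusted p of ATF5 was under 0.05 in 6 of 16 other settings, and was 0.0650 in limma with a replicate block. ATF4, the central factor of this response, was level, at 224 ± 3.84 and 224 ± 6.54 FPKM (SD, n = 3 each) with a log2 fold change of 0.00061.

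Signaling by mTORC1 and the MNK kinases, which controls the eIF4E step, had 13 of 14 listed genes tested, as DEPTOR was below the filter at a mean of 0.159 FPKM. Of the 13, 10 were above 0, 76.9% beside 55.1% of all genes, with a median log2 fold change of 0.054. At an unadjusted p under 0.05, 3 were higher, 23.1% beside 6.63% of all genes, and 0 were lower. MTOR, the kinase, was at 10.8, 11.7 and 11.4 FPKM in agomir libraries and 10.3, 10.53 and 9.68 FPKM in NC libraries. TSC1, a subunit of the complex that restrains mTORC1, was at 13.7, 14.5 and 13.5 FPKM in agomir libraries and 13.3, 11.8 and 11.2 FPKM in NC libraries. RPS6KB1, the S6 kinase that mTORC1 activates, was at 15.3, 13.8 and 13.8 FPKM in agomir libraries and 13.0, 10.6 and 13.3 FPKM in NC libraries. In each of the 3 the agomir values were above all control values, and none passed adjustment. Groups did not overlap for 23.1% of the list, beside 17.2% of all genes. The unadjusted p stayed under 0.05 in 8 of 16 other settings for MTOR, 12 for TSC1 and 10 for RPS6KB1, and with quantile normalization only TSC1 kept it, at 0.0483 beside 0.0803 for MTOR and 0.0603 for RPS6KB1. Their log2 fold changes were 0.15, 0.19 and 0.22, with limma unadjusted p-values of 0.0468, 0.0251 and 0.0361 and adjusted p-values of 0.447, 0.397 and 0.423. Without both libraries numbered 2 the log2 fold changes were 0.15, 0.15 and 0.14, with unadjusted limma p-values of 0.113, 0.157 and 0.117. Leaving out a single library brought them to at most 0.138 for MTOR and 0.0921 for TSC1, both without agomir NC replicate 3, and 0.138 for RPS6KB1, without agomir NC replicate 2, where its log2 fold change was 0.12.

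Elongation and release factors had 13 of 14 listed genes tested, with EEF1A2, an isoform of muscle and nerve, below the filter at 0.162 FPKM. Their median log2 fold change was 0.033, and at an unadjusted p under 0.05, 1 was higher, 7.69% beside 6.63% of all genes, and 0 were lower. The higher gene was EEF1D, an exchange factor for the elongation factor eEF1A, at 108, 109 and 114 FPKM in agomir libraries and 102, 95.3 and 106 FPKM in NC libraries. All agomir values were above the controls, with a log2 fold change of 0.13 (SE 0.049, limma unadjusted p = 0.0259, adjusted p = 0.399), which was 0.088 (unadjusted p = 0.0915) without agomir NC replicate 2 and 0.10 (unadjusted p = 0.104) without agomir replicate 3. Neither of the 2 mitochondrial initiation factors passed the unadjusted threshold. MTIF2, with the smaller p, had a log2 fold change of 0.031 (SE 0.12, limma adjusted p = 0.953) whose sign did not hold across settings. Its 95% interval was wide, from −0.24 to 0.30.

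Some cell markers also passed the unadjusted threshold, and none passed adjustment. At an unadjusted limma p under 0.05, DCN and NT5E were lower with the agomir among 10 tested preadipocyte and fibroblast markers, and PPARG was higher and FABP4 lower among 7 tested markers of mature adipocytes, beside 6.63% higher and 4.31% lower of all genes. Adjusted limma p-values were 0.376 for DCN, 0.209 for NT5E, 0.407 for PPARG and 0.363 for FABP4, whose groups overlapped. Of the 10 preadipocyte and fibroblast markers, 7 log2 fold changes were below 0 and 3 above, those of PDGFRB, COL1A1 and COL1A2. Among the 7 adipocyte markers, PLIN1 (0.14), CIDEA (0.12), CEBPA (0.29) and LPL (0.058) were above 0 like PPARG (0.23). LIPE (−0.0049) was below 0 like FABP4 (−0.49). NT5E, the surface enzyme CD73, was at 73.2 ± 3.73 against 87.2 ± 3.56 FPKM (SD, n = 3 each). The sums of the preadipocyte and fibroblast markers were 23581, 24475 and 23535 FPKM in the agomir libraries and 23359, 24535 and 23774 FPKM in the NC libraries, so that both libraries numbered 2 had the highest sums of their groups. These sums rest largely on COL3A1, COL1A1 and COL1A2, with means of 7623, 5979 and 5721 FPKM over the 6 libraries. The part of these markers in the values of the initiation factor genes was not tested.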

How the data were processed

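RNA of 3 agomir and 3 agomir NC samples was sequenced. Per the labels, fastp, HISAT2 and StringTie were used with the ARS-UCD1.2 genome, and the values the authors deposited are FPKM, 1 for each gene in each library. FPKM holds no read counts and low values showed no whole-read steps, so the depth is unknown and no counting error is given. Libraries summed to between 365977 and 379361 FPKM.

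The 12422 of 23475 genes that averaged 0.5 FPKM or more were taken as log2(FPKM + 0.5) and compared with limma 3.58.1 in R 4.3.3 by a two-sided moderated test with variance trend, and p-values were adjusted by Benjamini-Hochberg. The script was tested on simulated data. Single genes also had an exact permutation test over 20 labelings. The members and lists were chosen with earlier results of these data known. In each factor group the most abundant gene and that with the smallest p were named, as was every gene with an unadjusted p under 0.05 and, from each other list, such genes or that with the smallest p. Paralogs were set side by side, and other genes were named after their values were seen. All 48 symbols matched RefSeq genes (ARS-UCD2.0), and 16 members overlap another gene. The strand of counting is not stated. Other pseudocounts, filters, scalings, weights and variance models, a replicate block and left-out libraries were tried.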

Additional observations from a re-analysis of the deposited data

How the results depend on the processing

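The adjusted p of every initiation factor gene stayed above 0.05 in all 16 other settings. The 95% intervals lay within a fold of 1.5 for 46 or 47 of the 47 genes and within a fold of 1.2 for 32 to 40. The share of all genes within a fold of 1.2 also moved, from 32.4% without both libraries numbered 2 to 53.1% with a pseudocount of 1. The count of all genes under an adjusted p of 0.05 went from 1 to 0 with no filter, with no variance trend, with a replicate block and without both libraries numbered 2, and lay between 0 and 2 when single libraries were left out. The 2 members higher at an unadjusted limma p under 0.05 became 1 with no filter, median-ratio scaling, array weights or a replicate block (EIF4G2 in each), beside 5.23%, 5.42%, 6.59% and 5.94% of all genes higher in these settings, and 0 with no variance trend (6.12% of all genes) and without both libraries numbered 2 (3.72%). Leaving out single libraries gave 0 to 4 higher and 0 to 1 lower members, beside 4.47% to 6.68% higher and 3.08% to 4.80% lower of all genes, and 7 to 12 without overlap. The members lower were EIF2B3, EIF4EBP1, EIF5A and EIF2D, each in 1 of these settings. Beside EIF4A1 and EIF4G2, the members higher were EIF4E in 2 and EIF4G1, EIF4E2, EIF1AD and EIF4EBP2 in 1 each. With smaller groups more genes of any kind do not overlap, between 25.6% and 29.3% of all genes tested.

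Leaving out both libraries numbered 2 was chosen after seeing the data. It gave 1 lower member (3.72% of all genes), 16 without overlap (39.3% of all genes), and median log2 fold changes of −0.0031 for eIF2, eIF2A and eIF2D, −0.097 for eIF2B, −0.036 for eIF3, 0.031 for eIF4E and eIF4G and −0.041 for eIF5, eIF5A, eIF5B and eIF6. The median over the 47 genes lay between 0.0073 and 0.044 when single libraries were left out. Without agomir replicate 2 alone the medians were −0.0073 for eIF2B (0.082 without agomir replicate 1, 0.11 without agomir NC replicate 1), −0.0089 for eIF3 and −0.0023 for the group of eIF5, and without agomir NC replicate 2 alone −0.028, −0.0104 and −0.0058. Median-ratio scaling turned 824 higher and 535 lower of all genes into 673 and 688.

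Of the 22 genes followed through the settings, 5 turned sign in at least 1. EIF1 went to 0.014 with quantile normalization and lay between −0.048 and 0.017 when single libraries were left out. EIF2B2 went to −0.0011 with median-ratio scaling and −0.015 with quantile normalization, lay between −0.087 and 0.12 when single libraries were left out, and was −0.14 without both libraries numbered 2, where EIF2S3 was −0.0031 and EIF4EBP1 0.014. MTIF2 went to −0.00079 with array weights, lay between −0.082 and 0.10 when single libraries were left out, and was −0.12 without both. The cause was not tested. Of the other values for single named genes, 276 kept their direction and side of the threshold, 57 lost the threshold and 4 passed it. The depth is unknown, so its effect on precision was not measured.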
